A study of Mus musculus with 15 samples.

Results

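Pigment epithelium pixels are the small squares of mouse embryo sections in which transcripts of melanin-making genes were found. The embryos were at embryonic day 10 (E10), and each square, or pixel, was 10 µm wide. A pixel was chosen by its counts of 6 genes, the rule genes Pmel, Dct, Tyrp1, Tyr, Trpm1 and Mlana: it had at least 2 summed counts of them. It also had to lie over tissue, which here means that its total over all genes reached 0.1 of a high reference total, the 95th percentile over the section's pixels. The rule was met by 136 of 2173 tissue pixels in section 1 and by 182 of 2271 in section 2, 318 of 4444 in all. The 6 rule genes therefore describe the members and are not tested in them, while every other gene was measured in the same pixels without taking part in the choice.

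The study sequenced RNA from frozen sections of whole mouse embryos after barcoding it in place on a grid of 50 by 50 positions, so that each count belongs to a gene and a grid position. Its transcript libraries number 11, from E10 to E12, with pixels 10, 25 or 50 µm wide, and the sections used here are the 2 replicates at E10 and 10 µm. No treatment, genotype or strain is given in the labels, and whether the sections come from separate embryos is not given either, so p-values measure the spread between these sections only. A pixel is a small region that can hold parts of several cells, and a lower level in it can mean fewer cells of a type or less RNA per cell, which cannot be told apart.

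The retinal pigment epithelium is a single sheet of cells that forms the outer wall of the optic cup, the outgrowth of the forebrain that becomes the eye, while the inner wall becomes the neural retina. It is the first tissue of the embryo to make melanin, within organelles called melanosomes, and it later recycles the retinoids used in vision. Its identity rests on the transcription factors Mitf and Otx2. Pmel forms the fibrils on which melanin is laid down, Tyr (tyrosinase), Tyrp1 and Dct are the enzymes of melanin synthesis, Trpm1 is a cation channel, and Mlana is a melanosome membrane protein.

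Of the rule genes, 4 had a promoter entry in the RefSeq tables (build GRCm38.p6), and the 250 bases before the start of transcription are shown because the genes share a short word there. Chromosomes and positions are whole numbers, printed in the labels of these stretches with an empty decimal place. The capitals mark TCATGTG, known as the M-box, or its reverse complement CACATGA; the M-box is a recognition sequence of MITF-family factors.
Dct, chr14.0:118052247.0-118052496.0, minus strand: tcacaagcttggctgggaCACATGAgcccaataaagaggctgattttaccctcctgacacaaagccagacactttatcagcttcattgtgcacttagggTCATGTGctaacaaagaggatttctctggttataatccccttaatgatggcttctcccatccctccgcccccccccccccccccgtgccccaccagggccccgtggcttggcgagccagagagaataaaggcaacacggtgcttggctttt
Tyrp1, chr4.0:80833963.0-80834212.0, plus strand: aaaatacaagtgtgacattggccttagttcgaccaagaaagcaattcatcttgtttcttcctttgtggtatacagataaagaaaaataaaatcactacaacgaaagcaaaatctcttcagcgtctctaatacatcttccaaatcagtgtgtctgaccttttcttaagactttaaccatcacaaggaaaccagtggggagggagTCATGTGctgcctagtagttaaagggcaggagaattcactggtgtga
Tyr, chr7.0:87493513.0-87493762.0, minus strand: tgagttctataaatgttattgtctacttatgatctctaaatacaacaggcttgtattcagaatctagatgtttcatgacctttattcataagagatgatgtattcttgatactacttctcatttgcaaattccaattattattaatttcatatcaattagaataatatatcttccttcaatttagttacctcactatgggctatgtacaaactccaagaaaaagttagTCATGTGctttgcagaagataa
Trpm1, chr7.0:64153585.0-64153834.0, plus strand: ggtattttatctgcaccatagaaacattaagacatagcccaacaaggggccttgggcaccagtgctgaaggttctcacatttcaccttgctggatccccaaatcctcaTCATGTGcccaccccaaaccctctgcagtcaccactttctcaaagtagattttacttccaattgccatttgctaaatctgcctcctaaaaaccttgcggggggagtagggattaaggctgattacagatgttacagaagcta
The word begins 151 bases before the start in Dct, which also holds a reverse copy at 232, and it begins at 47 in Tyrp1, 22 in Tyr and 142 in Trpm1. The Trpm1 stretch is 1 of 2 entries for that gene, and the other entry has no match. Over all 32851 promoter stretches of this length, both strands searched, 3.25% held the M-box. Among the 12 genes with the largest differences in the higher direction, 8 had an entry and none held it, nor did the entries of Mitf and Oca2. A match describes the letters only, and binding was not measured.

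Trpm1, a rule gene, and Trpm3, a gene outside the rule that proved high in the pigment pixels, each hold a microRNA within the gene. Their mature sequences are shown because the seed, bases 2 to 8 in capitals, is the same word in both.
mmu-miR-211-5p, chr7:64205831-64205852, plus strand: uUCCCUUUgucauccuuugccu
mmu-miR-204-5p, chr19:22750610-22750631, plus strand: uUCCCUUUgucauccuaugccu
These microRNAs were not measured here.

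Pmel gave most of the rule counts. It had 607 counts in the pigment pixels of section 1, a level of 450 CPM (counts of the gene for every 1000000 counts of all genes), and it was found in 113 of the 136 pixels. In section 2 it had 501 counts, 819 CPM, in 149 of the 182. Trpm1 stood at 234 and 348 CPM in the pigment pixels of sections 1 and 2, Dct at 110 and 167 CPM, Tyr at 49.7 and 52.3 CPM and Tyrp1 at 25.2 and 29.4 CPM. All 5 levels were higher in section 2, and they are not corrected for gene length. A fixed cut of 2 raw counts asks for a higher CPM in a shallower pixel. The members had a median total of 6368 counts in section 1 and 2904.5 in section 2. The difference in rule gene levels between the sections is therefore not measured apart from the rule. Mlana gave 5 counts in section 1 and has no column in the table of section 2. A pigment pixel held a median of 3 rule counts in each section, and the richest held 67 in section 1 and 35 in section 2. At least 2 different rule genes were found in 92 of 136 pixels and in 113 of 182, and 3 or more in 41 and 35.

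The rule genes marked the same pixels as each other. When pixels were chosen by the other rule genes alone, with Pmel left out of the choice, Pmel stood at 647 CPM in the chosen pixels of section 1 and at 20.03 CPM in the rest of the tissue, a ratio of 32.3 (95% interval from counting error 27.5 to 38.0). In section 2 the levels were 855 and 63.3 CPM, a ratio of 13.5 (11.5 to 15.9). Trpm1 gave ratios of 17.99 (14.5 to 22.3) and 7.68 (6.04 to 9.73) in the same way, Dct 15.2 (11.4 to 20.6) and 12.3 (8.49 to 17.8), Tyr 36.0 (19.9 to 69.8) and 13.4 (6.82 to 27.2), and Tyrp1 38.4 (16.7 to 103) and 4.13 (1.798 to 8.96). Each of these ratios was larger in section 1 than in section 2. The intervals of the sections did not overlap for Pmel and Trpm1, and for Tyrp1, which rests on 11 counts in the chosen pixels of section 2.

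**Figure D1:**
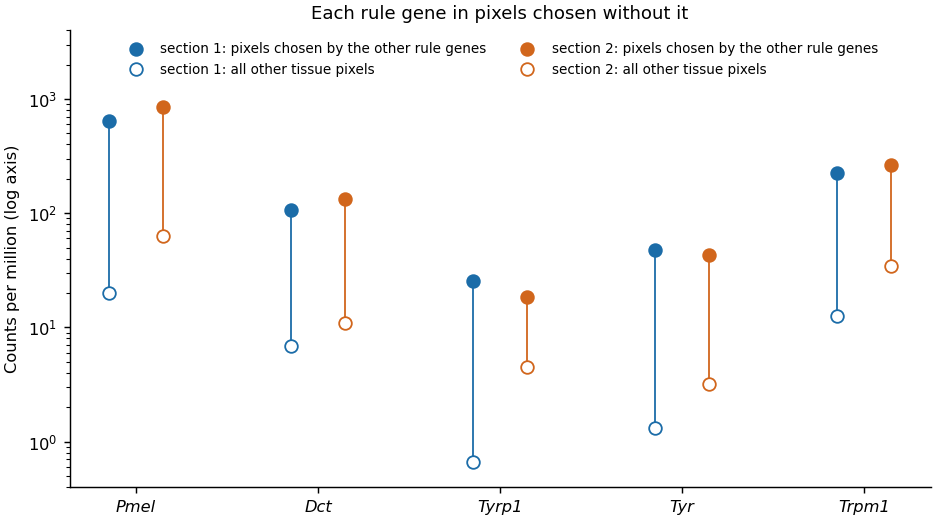
Level of each rule gene in CPM (log axis) in pixels chosen by the other rule genes (filled circles) and in the remaining tissue pixels (open circles), with 1 pair per section. Filled circles lie above open ones for all 5 genes in both sections, from 647 against 20.03 CPM for Pmel in section 1 to 18.4 against 4.47 CPM for Tyrp1 in section 2.

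Position on the grid took no part in the rule, and the pigment pixels lay together. In section 1, 38.6% of the tissue pixels that share a side with a pigment pixel were pigment pixels themselves, against 4.11% of those beside other tissue. In section 2 the shares were 48.2% and 4.68%. Section 1 held 3 patches of at least 10 touching pigment pixels, of 35, 10 and 13 pixels, which together trace a ring between grid columns 3 and 21 and rows 6 and 20. The ring is crossed by 3 columns with 10 or fewer tissue pixels each. Section 2 held a patch of 114 pixels between columns 14 and 29 and rows 32 and 45, 160 by 140 µm. The patches held 71.8% of the members' rule counts in section 1 and 79.8% in section 2, although the remaining 78 and 68 members lay scattered, 43 and 33 of them with no pigment pixel beside them.

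**Figure D2:**
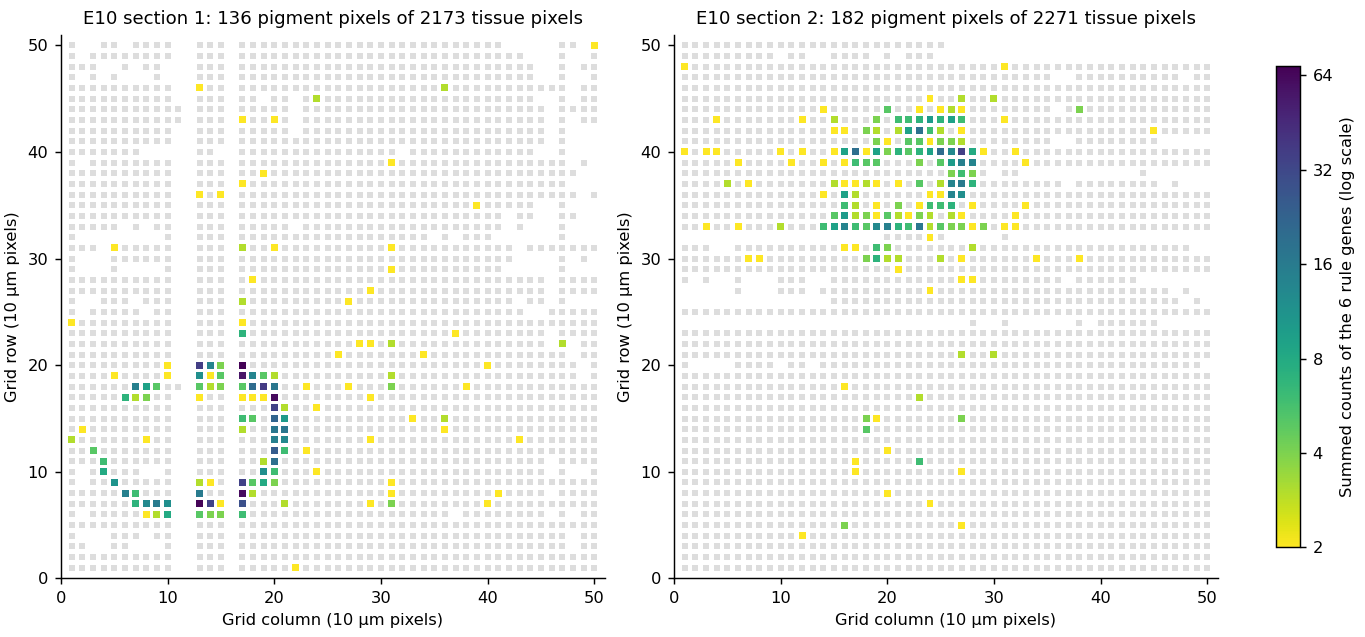
Grid maps of E10 section 1 (left) and section 2 (right), with grid column and row in pixels of 10 µm. Grey squares are other tissue pixels and coloured squares are pigment pixels, coloured by summed counts of the 6 rule genes on a log scale; the 136 and 182 members concentrate in a ring at columns 3 to 21 and in a patch at columns 14 to 29.

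Pigment pixels were deeper than the rest of the tissue, which the rule itself favours, since a deep pixel reaches 2 raw counts more easily. Among pixels outside the rule, those with 1 rule count had a median total of 5851 against 3710.5 for those with 0 in section 1. In section 2 these medians were 2143 and 2015.5. Depth is therefore not a trait measured apart from the choice of pixels. The median total count of pigment pixels was 6368 against 3946 for other tissue pixels in section 1, and 2904.5 against 2030 in section 2. Pigment pixels showed 1.39 and 1.33 times as many genes per pixel, ratios that came to 1.02 and 1.01 when pixels were thinned to 1000 counts. The thinning left out 9 of 182 pigment pixels and 428 of 2089 other tissue pixels of section 2, and 0 of section 1. A few lines of the grid were also deep: 6 columns of section 1 and 3 rows of section 2 had a median over 2 times that of the section's tissue pixels, and they held 43 and 44 of the members. Libraries summed over pigment pixels held 1348632 and 611938 counts, and those over other tissue pixels 10650133 and 4687258. With reference pixels of like depth, the comparison that follows called 81 genes higher and 48 lower.

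To find which other genes go with pigment, counts were summed over the pigment pixels and over the other tissue pixels of each section and compared with edgeR's quasi-likelihood test, with the section as a block and the rule genes left out. Of 13060 genes tested, 96 were higher in pigment pixels, which is 0.735%, and 49 were lower, which is 0.375%, at an adjusted p under 0.05. The direction was the same in both sections for 143 of these 145 genes, which a call itself favours. Of all 13060 genes tested, 3141 were higher in both sections and 3801 lower in both. With 2 sections the fit has 1 residual degree of freedom and takes its spread from all genes together. Without the section block edgeR called 0 genes, with 214 at an unadjusted p under 0.05, and DESeq2 with the block called 27 genes, all higher. The count was also over 1.5 times smaller with the tissue threshold at 0.2 (48), with reference pixels over 2 pixels from any member (81) and without the deep lines (54). The 145 genes kept their sign wherever they were fitted in the alternatives, all of which reuse pixels of the same 2 sections.

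Melanosome genes outside the rule were mostly higher in pigment pixels. Of 14 tested genes of this list, 8 were higher in pigment pixels and none was lower, and the list's median log2 fold change was 1.67 beside -0.01 for all genes. Genes as low as Gpr143 in other tissue pass the filter on low counts only through the pigment pixels where they are high; with no filter, 6 of all 20 genes of the list were called and the median was 1.48. DESeq2 called 4, the tissue threshold of 0.2, the far reference and the fit without deep lines 5 each, and the fit over 4 sections 3 of the 8 genes it could hold, with a median of 0.19. Gpr143, a receptor of the melanosome membrane that is mutated in ocular albinism, had 13 counts (9.64 CPM) in pigment pixels and 9 counts (0.845 CPM) in other tissue of section 1, and 15 (24.5 CPM) and 2 (0.427 CPM) in section 2. Its log2 fold change was 4.34 ± 0.75 (standard error; edgeR adjusted p = 2.94e-06, n = 2 sections). Gpnmb, a glycoprotein related to Pmel, stood at 44.5 against 3.19 CPM in section 1 and at 60.5 against 3.63 CPM in section 2, a log2 fold change of 3.92 ± 0.40 (edgeR adjusted p = 1.66e-19). The sections gave nearly the same contrast for Gpnmb, whereas for Gpr143 the pigment level was 24.5 CPM in section 2 and 9.64 in section 1.

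Oca2, a melanosome anion channel, stood at 32.6 against 1.31 CPM in section 1 and at 13.1 against 3.20 CPM in section 2 (log2 fold change 3.57 ± 0.56, edgeR adjusted p = 1.32e-07). Mitf, the transcription factor of pigment cells, stood at 40.0 against 9.77 CPM and at 27.8 against 6.19 CPM (2.09 ± 0.38, edgeR adjusted p = 1.19e-05). Mlph and Rab27a, which tie melanosomes to the myosin motor, had log2 fold changes of 3.13 ± 0.77 and 2.01 ± 0.57. Bace2, a protease that processes Pmel, had 2.74 ± 0.49. Cd63, which sorts Pmel within endosomes, differed less, with 173 against 147 CPM in section 1 and 168 against 86.6 CPM in section 2 (0.56 ± 0.16, edgeR adjusted p = 0.0382), and its call was lost in 8 of 11 alternatives that give an adjusted p. Rab38 and Rab32, which deliver cargo to melanosomes, did not pass, with log2 fold changes of 0.63 and 1.33, and the transporters Slc45a2 and Slc24a5 had 8 counts each in pigment pixels and were too few to test. The melanocyte receptors were not higher: Kit and Ednrb had log2 fold changes of -0.10 and -0.30, neither past the threshold.

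Of 12 tested genes of the retinal pigment epithelium list, 4 were higher and none was lower, with a median of 0.56, or 4 of 17 and 0.38 with no filter. With reference pixels over 2 pixels from any member, 2 of 12 were higher, and Krt18 and Otx2 lost their calls. Trpm3, a cation channel, stood at 45.2 against 4.13 CPM in section 1 and at 31.0 against 3.84 CPM in section 2 (log2 fold change 3.29 ± 0.42, edgeR adjusted p = 7.02e-12). Rlbp1, which carries retinoids in pigment epithelium and Müller glia, stood at 11.1 against 0.845 CPM and at 29.4 against 4.48 CPM (3.15 ± 0.60, edgeR adjusted p = 4.01e-05). Krt18, an epithelial keratin, stood at 100.8 against 32.9 CPM and at 116 against 12.8 CPM (2.26 ± 0.23, edgeR adjusted p = 3.48e-19). Otx2 stood at 119 against 25.0 CPM in section 1 and at 116 against 70.0 CPM in section 2 (1.57 ± 0.20, edgeR adjusted p = 7.02e-12). The pigment level of Otx2 was alike in both sections, and the level in other tissue was higher in section 2. Rpe65, the retinoid isomerase of the visual cycle, and Lrat, which makes retinyl esters, had 0 counts in the pigment pixels of both sections, and Best1, a chloride channel, had 2 in section 1 and 0 in section 2. Rdh5, a retinol dehydrogenase of the visual cycle, was present, at 17.1 against 7.61 CPM in section 1 and 13.1 against 7.47 CPM in section 2, and did not pass (log2 fold change 1.04, edgeR adjusted p = 0.595).

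Genes with no list were among the largest differences. Slc38a8, a glutamine transporter, stood at 38.6 against 2.72 CPM in section 1 and at 73.5 against 5.33 CPM in section 2, a log2 fold change of 3.81 ± 0.39 (edgeR adjusted p = 1.66e-19). Dapl1, a small protein known from pigment epithelium, stood at 125 against 15.6 CPM and 173 against 18.3 CPM (3.12 ± 0.21, edgeR adjusted p = 2.15e-43). Slc4a5, a bicarbonate transporter, had a log2 fold change of 3.63 ± 0.52, Col8a1, a short-chain collagen of basement membranes, 3.54 ± 0.52, Guca1b 3.49 ± 0.75 and Clec18a 3.06 ± 0.51. The log2 ratio of CPM + 1 was lower in section 1 than in section 2 for Clec18a, 1.68 against 3.90, and for Col8a1, 2.43 against 3.85. Tspan10, a tetraspanin, had the largest value of all called genes, 4.63, with 15 counts in pigment pixels of section 1 and 8 in section 2, and is named after its values were seen because its counts are below the minimum of 10 set for naming. Dapl1, Slc38a8 and Gpnmb passed in all 11 alternatives with an adjusted p other than the one without the block, as did 10 of the 56 named genes in all; 7 of the 56 were too low for the fit over 4 sections.

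**Figure D3:**
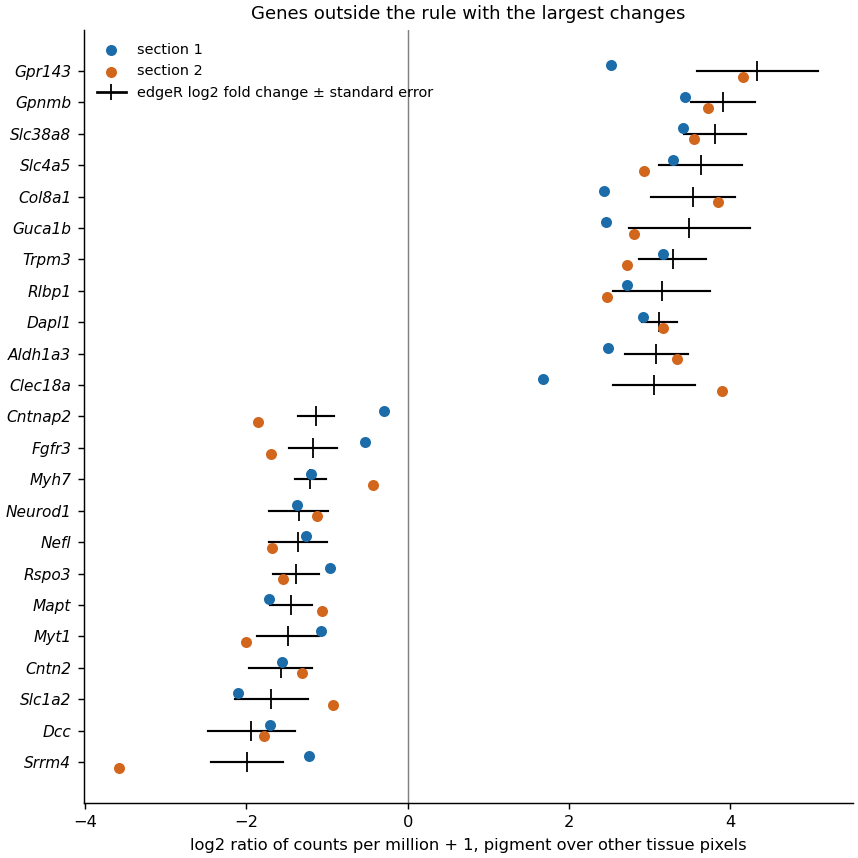
Log2 ratio of pigment over other tissue pixels, computed on CPM + 1 within each section (circles), and edgeR's log2 fold change with its standard error (black), for genes outside the rule among the 12 with the largest difference in each direction. The genes were chosen for a like sign in both sections, and the circles of the higher genes lie between 1.68 and 4.16.

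Genes of the inner wall of the optic cup were also high in pigment pixels. Of 13 tested genes of the neural retina progenitor list, 6 were higher and 1 was lower, with a median of 1.11. With no filter on low counts, 6 of 14 were higher and the median was 0.95, and DESeq2 called 2 of 14. Among the higher genes, Sfrp2, a secreted regulator of Wnt signals, stood at 134 against 36.2 CPM and at 172 against 41.8 CPM (1.97 ± 0.19). The homeobox genes Hmx1, Six6, Pax6 and Six3 had log2 fold changes of 2.45, 1.73, 1.11 and 0.91. The log2 ratio of CPM + 1 differed between sections 1 and 2 for Six6, 0.84 against 2.94, and for Hmx1, 1.35 against 3.15. Hes5, a target of Notch, was the lower gene, at -0.90 ± 0.24. Pax6 and Six6 lost their calls in 5 alternatives each, and in section 2 Pax6 was nearly as high in other tissue, 201 CPM, as in pigment pixels, 250 CPM. In section 1, Six6 stood at 78.9 CPM in tissue over 5 pixels from any member and at 77.9 CPM in the members.

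Of 10 tested optic cup patterning genes, 3 were higher, and of 8 tested retinoid handling genes, 4 were higher, with none lower in either list and medians of 1.24 and 1.22. With no filter on low counts, 2 of 12 and 3 of 10 were higher, with medians of 1.05 and 1.16. DESeq2 called 2 of 12 and 2 of 10. Aldh1a1 and Aldh1a3 make retinoic acid, the former in the dorsal and the latter in the ventral optic cup. Aldh1a1 stood at 193 against 38.1 CPM in section 1 and at 60.5 against 7.68 CPM in section 2 (log2 fold change 2.53 ± 0.22, edgeR adjusted p = 5.46e-26). Reads of Aldh1a1 can be shared with its close copy Aldh1a7, which was called too, at 2.46. Aldh1a3 stood at 35.6 against 5.54 CPM and at 52.3 against 4.27 CPM (3.09 ± 0.39). The higher retinoid handling genes included Rlbp1, given with the pigment epithelium list. Stra6, a membrane receptor for retinol uptake, had a log2 fold change of 1.26 ± 0.30. Crabp1 had 0.53 ± 0.13, with 721 against 606 CPM in section 1 and 234 against 125 CPM in section 2, and its call was lost in 7 of 11 alternatives. Tbx3, a dorsal cup factor, had 1.02 ± 0.29, and its call was lost in all 11 alternatives.

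Neuron genes were lower in pigment pixels. All 8 genes of that list passed in the lower direction, with a median log2 fold change of -0.95. Stmn2, a microtubule regulator of growing axons, stood at 77.1 against 144 CPM in section 1 and at 70.3 against 162 CPM in section 2 (-1.01 ± 0.18, edgeR adjusted p = 4.56e-06). Dcx stood at 45.2 against 92.4 CPM and at 55.6 against 126 CPM (-1.08 ± 0.20), and Tubb3 had -0.79 ± 0.16. All 8 stayed negative in every alternative, but 1 of 8 passed without the deep lines of the grid, 3 with the stricter tissue threshold of 0.2 and 0 in DESeq2. The lower genes with the largest differences included Srrm4, a splicing factor of neurons (-1.99 ± 0.45), Dcc, a netrin receptor of axons (-1.94 ± 0.54), Cntn2, Myt1, Mapt and Neurod1. Rspo3, an activator of Wnt signalling, stood at 6.67 against 14.0 CPM in section 1 and at 49.0 against 145 CPM in section 2 (-1.39 ± 0.28). Myh7, a heart myosin, was lower (-1.21 ± 0.19), and nearly all its counts in other tissue, 5121 against 12, came from section 1. The same holds for the heart and muscle genes Ttn, Myl2, Myl3, Myh6 and Tnnt2, named after their values were seen: with Myh7 they are the 6 of 49 lower genes with under 20 counts in other tissue of section 2.

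Markers of other cells that such pixels could hold were mostly not higher. None of 13 mesenchyme genes was higher and 1, Col3a1, was lower, and the summed level of that list was 1705 CPM in pigment against 2278 CPM in other tissue pixels of section 1 and 1067 against 1061 CPM in section 2. None of 7 tested neural crest and melanoblast genes was called, with 110 against 115 CPM and 50.7 against 63.4 CPM. The summed level of that list was below that of other tissue in both sections. Its gene Sox10, a factor of neural crest and melanoblasts, had a log2 fold change of 0.61 (edgeR adjusted p = 0.997). The sections differed for Sox10, with 9.64 against 10.05 CPM in section 1 and 8.17 against 1.49 CPM in section 2. The section 2 values rest on 5 counts in pigment pixels and 7 in other tissue. None of 7 endothelial genes and none of 4 tested lens genes was called, and of 8 red cell genes Hbb-bt alone was called, in the lower direction; its reads can be shared with Hbb-bs. The summed neuron list stood at 409 against 759 CPM and at 474 against 960 CPM. Of 11 lysosome genes, Ctsd and Cst3 were higher, at 0.76 and 0.43, calls lost in 4 and 8 of 11 alternatives, and 0 of 8 tested Wnt target genes was called. Of 8 brain progenitor genes, Otx2 and Pax6 were higher and Nes was lower, of 13 cell cycle genes Ccnd2 was lower, and the 1 surface epithelium gene tested was not called.

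Levels of Gpnmb, Slc38a8, Mitf and Dapl1 were highest in pixels with 6 or more rule counts in both sections, with no steady climb below that in section 1 for Gpnmb, Slc38a8 and Mitf. Pixels of section 1 with exactly 2 rule counts, which are 55 of its 136 members, had 1.90 CPM of Gpnmb, no count of Slc38a8 and 5.71 CPM of Mitf, against 3.06, 2.55 and 9.17 CPM in pixels with 1 rule count, just outside the rule. In the 45 pixels of section 1 with 6 or more rule counts the levels were 117, 105 and 93.7 CPM. In section 2 the 73 pixels with exactly 2 counts had 26.2 CPM of both Gpnmb and Slc38a8, against 7.42 and 13.0 CPM in pixels with 1, and the 48 richest had 108 and 134 CPM. Mitf of section 2 stood at 13.1 CPM in pixels with exactly 2 counts and at 7.42 CPM in those with 1. At the threshold, these 3 genes were thus no higher than in pixels with 1 count in section 1, and higher in section 2. The levels at the threshold rest on few counts and have no interval, so a difference between the sections is not shown. Dapl1 was above the level of pixels with 1 count at the threshold of both sections, with 47.6 against 17.8 CPM and 114 against 25.96 CPM.

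**Figure D4:**
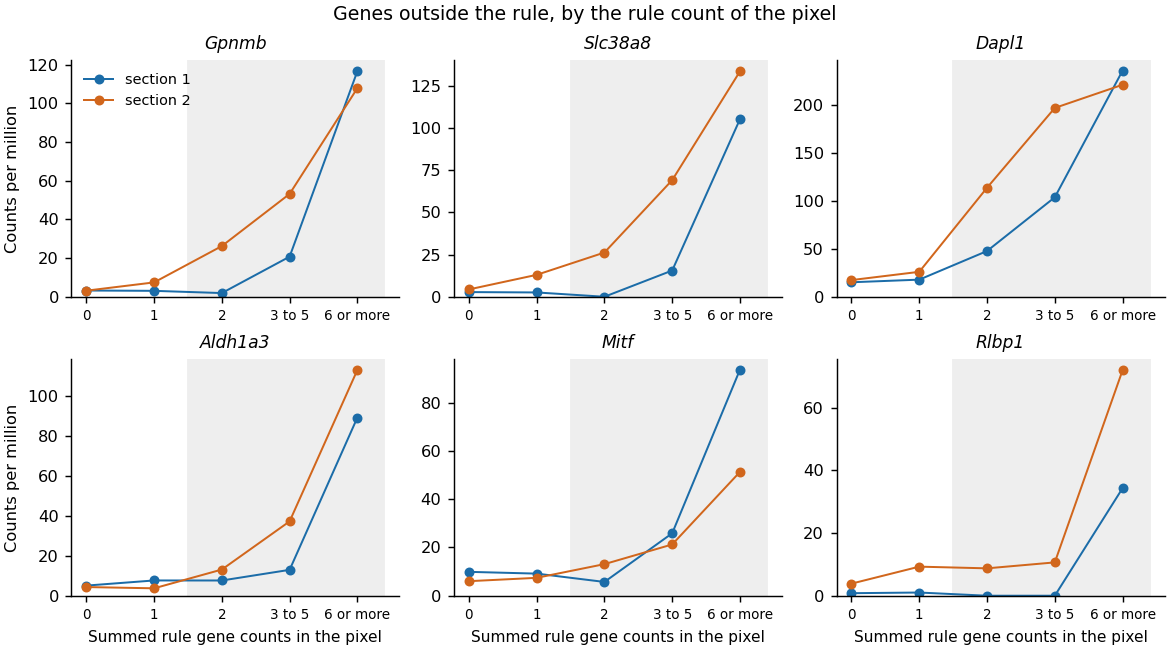
Levels of 6 genes outside the rule (CPM) in tissue pixels grouped by their summed rule counts, with the members shaded grey, for both sections. Gpnmb goes from 3.22 CPM in pixels with 0 rule counts to 117 CPM in those with 6 or more in section 1, and from 3.13 to 108 CPM in section 2.

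Patch pixels carried most of the signal of the other genes. In section 1, Gpnmb stood at 95.2 CPM in patch pixels and at 13.2 CPM in scattered members, with 3.19 CPM in other tissue, and in section 2 at 84.7, 17.99 and 3.63 CPM. Rlbp1 had 15 counts in patch pixels and 0 in scattered ones in section 1, and 17 and 1 in section 2. With only patch pixels as members, 122 genes were higher and 65 lower. This comparison was chosen after the data were seen, and the patches were found from the rule itself.

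Levels were also taken by distance from the patches. The drop of the rule genes beyond the patches is set by the rule, since non-members hold at most 1 rule count, and their values are given as a description. Summed rule genes stood at 1642 CPM in the patches of section 1 and at 60.7, 33.1, 32.6 and 19.4 CPM in non-member tissue at distances of 1, 2, 3 to 5 and over 5 pixels, and at 1774, 163, 116, 84.1 and 33.9 CPM in section 2. Gpnmb went from 95.2 to 5.06 CPM at 1 pixel in section 1 and from 84.7 to 14.4 CPM in section 2. Aldh1a1 went from 381 CPM to 250 CPM at 1 pixel and 227 CPM at 2 pixels in section 1, and from 89.8 to 57.5 CPM at 1 pixel and 0 counts at 2 pixels, which allows up to 30.6 CPM, in section 2. By distance from the patches, the summed neuron list showed the opposite course, 247, 263, 354, 692 and 810 CPM in section 1. In section 2 it stood at 275, 316, 540, 902 and 1012 CPM. By distance from any pigment pixel of section 1, scattered ones included, the rise was not steady. The list reached 1049 CPM at 3 to 5 pixels and stood at 470 CPM at over 5 pixels, against 409 CPM in the members. Col3a1 was lowest in the patches of both sections, 325 and 359 CPM, and reached 627 and 671 CPM at 1 pixel.

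**Figure D5:**
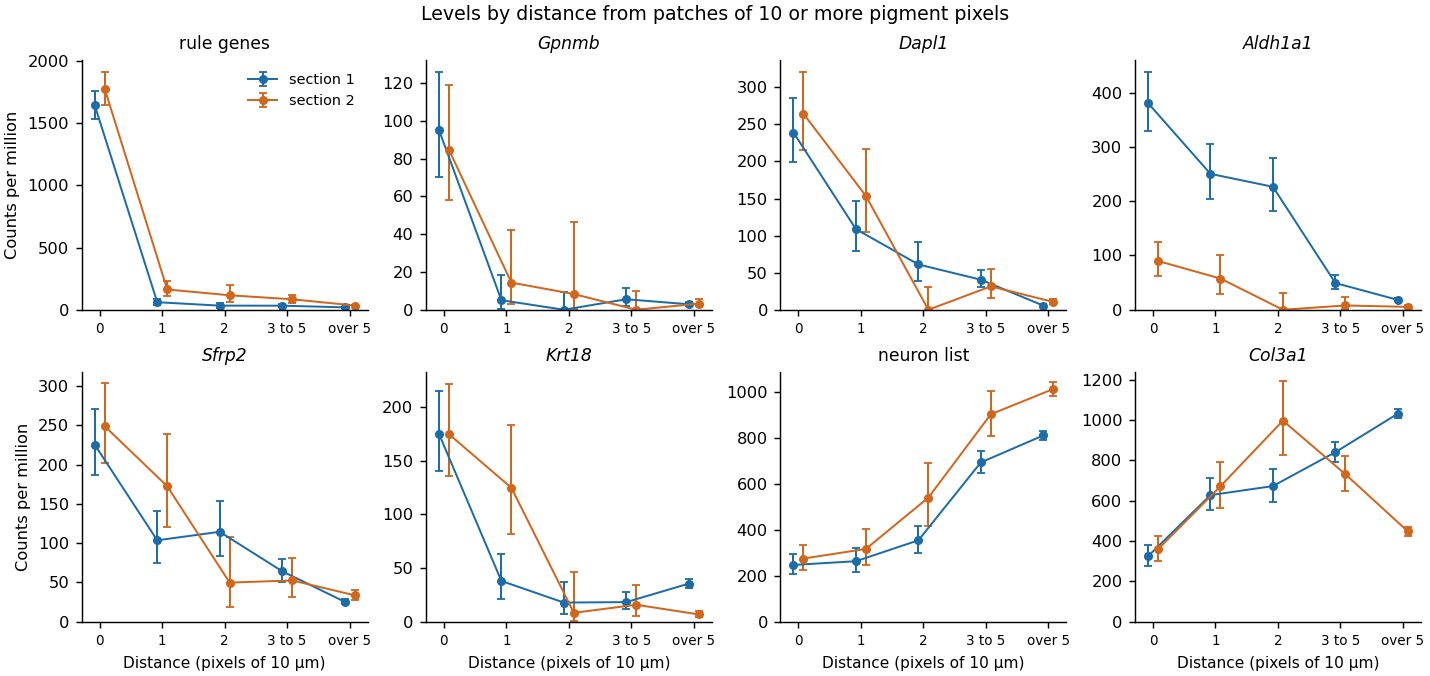
Level in CPM against distance from patches of at least 10 pigment pixels (pixels of 10 µm, the larger of row and column distance), for both sections, with 95% intervals from counting error; pigment pixels outside patches are left out beyond distance 0. The drop of the rule genes is set by the rule; Gpnmb stands at 5.06 and 14.4 CPM at 1 pixel, Aldh1a1 at 250 and 57.5 CPM, and the neuron list is lowest in the patches.

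Within an outline around the patches of section 1, other tissue had Six6 and Aldh1a1 at levels near or above those of the members. It had few counts of Oca2, Mitf and Krt18. The outline was the convex hull of all patch pixels of a section, the smallest shape around them with no inward bend. It enclosed 88 tissue pixels of section 1 that were not members and 57 of section 2. Some of these can lie beside a patch with no pigment pixels around them, and the outline of section 2 surrounds a single patch. In section 1, Oca2 had 43 counts (65.4 CPM, 95% interval from counting error 47.3 to 88.1) in the 71 members within the outline and 0 counts in the enclosed pixels, which allows up to 8.02 CPM. Mitf stood at 70.0 CPM (51.2 to 93.3) in those members and at 8.70 CPM (2.37 to 22.3) in enclosed pixels, and Krt18 at 157 CPM (128 to 190) and 10.9 CPM (3.53 to 25.4). Six6 went the other way, at 135 CPM (109 to 167) and 209 CPM (169 to 255), whose intervals do not overlap, and Aldh1a1 at 371 CPM (326 to 421) and 437 CPM (379 to 502). Dapl1 stood at 249.4 CPM (213 to 291) and 176 CPM (140 to 219), against 8.34 CPM in tissue outside the outline. Within the outline of section 1, Mitf, Krt18 and Oca2 were thus higher in the members. Six6, Aldh1a1 and Dapl1 were high in the members and in the enclosed pixels.

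The contrast was not the same in section 2. The outline held 115 members and 57 other pixels. These other pixels held 228 CPM of the summed rule genes (149 to 334), against 41.3 CPM in other tissue outside the outline. In section 1 these levels were 47.8 and 21.9 CPM. The median total in section 2 was 1991 in the enclosed pixels and 2848 in the members within the outline. A shallow pixel can miss the 2 counts of the rule, and how far this shaped the contrast was not tested. Krt18 stood in the enclosed pixels at 184 CPM (114 to 281) and in the members at 174 CPM (135 to 220), and Mitf stood at 61.4 CPM (24.7 to 126) against 38.4 CPM (21.5 to 63.3). Aldh1a3 was the reverse, 81.8 CPM (55.97 to 116) in members and 8.77 CPM (0.222 to 48.8) in enclosed pixels, against 63.9 CPM (46.0 to 86.3) and 43.5 CPM (26.6 to 67.1) in section 1. Oca2 had 8 counts in the members and 0 in enclosed pixels, which allows up to 32.3 CPM. Six6 was again high in both, with 143 CPM in members and 167 CPM in enclosed pixels. The neuron list was low in enclosed pixels of both sections, 215 and 254 CPM, against 783 and 977 CPM outside.

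The genes whose pattern over tissue pixels was most like the summed rule genes were Slc38a8, Otx2, Dapl1, Krt18, Aldh1a1, Mgll, Car14 and Igfbp5, of 9645 genes compared. The measure is Pearson's r of log2(count per 10000 + 1), averaged over both sections. It was 0.34 in section 1 and 0.27 in section 2 for Slc38a8, 0.31 and 0.10 for Otx2, and 0.19 in both for Dapl1. The points share the depth of their pixel, and the correlations are weak descriptions. Mgll, a lipase of monoglycerides, had 53 and 105 counts in the pigment pixels and a log2 fold change of 2.07. Car14, a membrane carbonic anhydrase, had 82 and 48 counts and 2.01.

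At least 20 pixels met the same rule in 2 other transcript libraries, which the choice of members did not use: 55 pixels at E10 in replicate 2 of the 50 µm libraries and 35 at E11 in replicate 1 of the 10 µm libraries. The remaining 7 libraries held 0 to 10 such pixels each. At E10 and 50 µm, Aldh1a1 stood at 60.6 CPM in these pixels and at 4.80 CPM in other tissue, a ratio of 12.6 (95% interval from counting error 8.13 to 19.8). Hmx1 gave 12.2 (4.81 to 32.2), Gpnmb 7.82 (3.38 to 17.9), Dapl1 7.16 (3.52 to 14.4) and Mitf 2.46 (1.18 to 4.78). Of 27 named higher genes with at least 10 counts, 21 were higher there too, 14 with an interval above 1. Among the others, Slc4a5 gave 1.05 (0.117 to 4.48), Col8a1 0.902 (0.175 to 2.92) and Stra6 0.732 (0.342 to 1.40). Crabp1, a retinoic acid carrier, went against the 10 µm sections, with a ratio of 0.578 (0.517 to 0.644). Of 24 named lower genes, 18 were lower, and Stmn2 gave 0.776 (0.682 to 0.879), while Rspo3 and Cntnap2 were higher, 1.98 (1.46 to 2.64) and 1.498 (1.19 to 1.86). Srrm4, the named lower gene with the largest difference at 10 µm, gave 1.04 (0.711 to 1.48).

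At E11 the 35 pixels had a median total of 1312 counts, and few genes were deep enough to compare. Six6 stood at 308 against 23.0 CPM, a ratio of 13.4 (6.91 to 24.3), Clec18a gave 17.7 (6.38 to 42.8), Hmx1 8.96 (2.72 to 23.2) and Pax6 3.09 (2.00 to 4.59). Of 21 named higher genes with at least 10 counts, 17 were higher there, 9 with an interval above 1. Among the others, Dapl1 gave 1.79 (0.044 to 10.8), Aldh1a3 1.32 (0.599 to 2.53) and Krt18 0.882 (0.180 to 2.62). Aldh1a1 had 0 counts in these pixels and 8 in the other tissue, so a difference was not detectable at this depth. Stmn2 had 0 counts against 214, and the interval of its ratio reaches 0.966. In a fit over all 4 sections, edgeR called 58 genes higher and 45 lower. The added sections differ from the main ones in stage or pixel width, so the values stand side by side. Shares over all genes are not given for them, so the counts of like direction describe the named genes only.

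An antibody library carries the same number in its title as section 2. That it comes from the same section is an assumption, since the labels do not say so; its log totals correlated with those of the transcripts at r = 0.60 over 2271 pixels. Its 22 antibody tags were compared as shares of all antibody counts, with no test since there is 1 such section. Pigment pixels held 138215 antibody counts, a median of 758 per pixel against 648 in other tissue. CD63, whose transcript was also higher, took 4.27% of antibody counts in pigment pixels and 3.64% in other tissue, a ratio of 1.17 (1.14 to 1.204). The panendothelial cell antigen gave 1.18 (1.14 to 1.22). At the low end, the erythroid marker LY76 gave 0.851 (0.827 to 0.877) and CD41 0.844 (0.806 to 0.884). All 22 ratios lay between 0.844 and 1.18, and 15 were above 1. Per transcript count in place of the antibody total, all 22 ratios were below 1, CD63 at 0.76, so the direction rests on the scaling. In patch pixels the ratio was 1.25 for CD63 and 0.738 for LY76.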

How the data were processed

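Transcript counts per gene and grid position were deposited by the authors as whole-number count tables, and antibody tag counts likewise; they were used as deposited. The submitters' processing notes name CASAVA 1.8.2 and the build GRCh38, although the gene symbols are those of mouse; the aligner and the counting of molecules are not given in the sources used here. Of 9 columns named by Ensembl identifier in each section, 8 were matched to a symbol.

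The members and the gene lists were chosen with earlier results of these data known. Counts of each pixel class were summed per section and fitted with edgeR 4.0.16 in R 4.3.3 (TMM factors, filterByExpr, quasi-likelihood test, section as block, Benjamini-Hochberg adjustment over all genes), with DESeq2 1.42.0 as an alternative. On simulated sums of 13060 genes the fit recovered 182 of 200 genes changed 4-fold with 5 false calls. The changed genes were drawn only from those with high summed counts, and all genes had the same dispersion, 0.02. These rates therefore do not carry over to sparse genes such as Gpr143, nor to pixel classes chosen by counts. Genes were named if called with the same sign in both sections and at least 10 counts in the higher class of each section, up to 12 with the largest change each way, plus called genes of the 16 lists and the rule genes. Intervals on CPM are exact Poisson intervals, and those on ratios are exact binomial intervals given the summed count, both at 95% and for counting error only; reads without molecular identifiers may not be independent. The other antibody tables and the list of barcodes were not used. Patches, outlines around patches, the fit without deep lines and the fit over 4 sections were added after the data were seen. Some genes and the comparison of pigment pixels with a retina class are not reported here.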

Additional observations from a re-analysis of the deposited data

How the results depend on the processing

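The fit called 145 genes, 96 higher and 49 lower. Counts over 1.5 times smaller came from DESeq2 (27, of which 27 higher and 0 lower, with 64 lower at an unadjusted p under 0.05), from the tissue threshold of 0.2 (48, 36 and 12), from reference pixels over 2 pixels away (81, 49 and 32) and from leaving out the deep rows and columns (54, 39 and 15). The fit over 4 sections called 58 higher. With no replicate block, 0 genes were called (0 higher and 0 lower), with 214 at an unadjusted p under 0.05; that fit counts the difference between sections as error. The cause of the other changes was not tested, though fewer pixels enter the stricter fits. The remaining settings (no TMM factors, no filter, at least 3 counts, at least 2 rule genes, reference pixels of like depth, patches only) gave 114 to 187 calls. Each section's log2 ratio of CPM + 1 was also set against edgeR's log2 fold change. It lay further off than the spread between sections for 15 (without section 1) and 14 (without section 2) of the 56 named genes. The measures differ, so this is not the effect of leaving out a section alone. For Guca1b the sections gave 2.47 and 2.81, both below the fit's 3.49. The like sign was part of how the genes were named. Genes per pixel moved from 1.39 to 1.02 in section 1 and from 1.33 to 1.01 in section 2 when thinned. Per transcript count in place of antibody share, 0 of 22 antibodies were higher, CD63 at 0.76 and the panendothelial antigen at 0.766. The alternatives planned for the comparison with a retina class were not run. The members would be 381 and 397 pixels at 1 count, and 62 and 82 at 4.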
